A study of Mus musculus with 20 samples.

Results

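Rassf8, the 3 angiomotin genes Amot, Amotl1 and Amotl2, and 5 core genes of the Hippo pathway, Yap1, Wwtr1, Tead1, Lats1 and Lats2, were followed in striatal RNA of High-Active and Control mice. They are 9 of the 39179 genes listed in the count tables, and all 9 were among the 14792 genes expressed above 1 count per 1000000 counted reads (CPM) in at least 3 mice. Rassf8 and Amotl2 were chosen by their difference between the lines in these same mice, so that difference is given for them as a description with no test. The other 7 genes were named as their relatives in the pathway.

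RNA was sequenced from 20 adult male mice of generation 17, about 6.5 months old, with 5 mice in each of 4 groups. The High-Active line was bred for the distance traveled in the home cage and the Control line was bred at random, both from an intercross of 8 inbred strains. Within each line, 5 mice received 0.25 mg/kg amphetamine and 5 received saline by intraperitoneal injection, and the whole striatum was taken 2 hours later. Each line is a single breeding population, so selection and random drift between the lines cannot be told apart. By the sires and dams in the labels, the 10 Control mice belonged to 8 families and the 10 High-Active mice to 5.

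The Hippo pathway is a kinase cascade that restrains cell growth. The kinases LATS1 and LATS2 phosphorylate the coactivators YAP, made by Yap1, and TAZ, made by Wwtr1, which are then held in the cytoplasm. Unphosphorylated YAP and TAZ enter the nucleus and bind TEAD transcription factors, since neither binds DNA itself. Angiomotins are scaffolds at cell junctions and on actin filaments that bind YAP and TAZ, and Amotl2 is itself a well-known target of YAP and TEAD. Rassf8 encodes a protein of the RAS-association family found at adherens junctions. In brain, YAP and TAZ activity is best known from astrocytes, neural progenitors and blood vessels.

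The core sequence that TEAD factors recognise is GGAATG, or CATTCC on the other strand. It was searched in the 250 bases before the transcription start in the RefSeq promoters of GRCm38.p6, which held 7 of the 9 genes (not Rassf8 or Tead1). Either form was present for Amotl2, Yap1 and Wwtr1, and 12.6% of 32851 promoters of all genes held it. A match is a description of the letters and not a binding site. These 3 windows are shown because Amotl2 is the angiomotin that was chosen and Yap1 and Wwtr1 encode the coactivators, and capitals mark the motif. The Amotl2 window is chr9:102717554-102717803 on the plus strand, with the motif 65 bases before that start. It lies inside the annotated gene, which begins at 102716672, so this start is an internal one. The windows of Amot, Amotl1 and Lats2 also lay inside their annotated genes. For these and Amotl2, the bases before the outermost annotated start were not searched. The Yap1 window is chr9:8004597-8004846 and the Wwtr1 window chr3:57575911-57576160, both on the minus strand. Wwtr1 had a second annotated start whose window held the same motif.
Amotl2: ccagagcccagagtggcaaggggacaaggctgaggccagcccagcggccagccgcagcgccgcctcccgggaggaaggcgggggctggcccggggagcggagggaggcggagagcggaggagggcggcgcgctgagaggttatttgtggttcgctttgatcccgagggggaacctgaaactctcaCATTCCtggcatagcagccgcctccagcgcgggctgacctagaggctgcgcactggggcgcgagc
Yap1: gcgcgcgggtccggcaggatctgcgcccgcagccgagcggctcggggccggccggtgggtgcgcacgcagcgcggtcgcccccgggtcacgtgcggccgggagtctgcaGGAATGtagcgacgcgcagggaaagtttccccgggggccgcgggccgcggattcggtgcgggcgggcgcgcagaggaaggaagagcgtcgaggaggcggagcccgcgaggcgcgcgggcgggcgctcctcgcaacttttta
Wwtr1: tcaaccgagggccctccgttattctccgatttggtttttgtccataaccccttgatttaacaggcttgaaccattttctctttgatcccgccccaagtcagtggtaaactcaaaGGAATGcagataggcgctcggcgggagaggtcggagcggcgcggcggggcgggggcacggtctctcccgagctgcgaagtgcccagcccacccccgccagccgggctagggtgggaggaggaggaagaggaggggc

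Libraries held 32388971 to 53710713 counted reads, and each of the 9 genes had 402 to 3270 counts in every mouse. Levels were compared between genes as CPM per kilobase of exon, where the length is that of all annotated exons of a gene merged. Lats1 was the highest at 7.02 ± 0.424 (SD, n = 20 mice), followed by Amotl1 at 4.49 ± 1.05. Amot (3.50 ± 0.318), Lats2 (3.45 ± 0.339), Amotl2 (3.33 ± 0.604), Wwtr1 (3.28 ± 0.454), Yap1 (3.09 ± 0.285) and Rassf8 (2.85 ± 0.771) lay close together on the same scale. Tead1 was the lowest at 1.44 ± 0.212 CPM per kilobase, and it was below Rassf8 in all 20 mice. That place depends on its merged exon length of 13.57 kb, the longest of the 9. In CPM, without length, the mean of Tead1 was 19.5 and that of Rassf8 was 15.8. The ranges of every pair of neighbours in this order overlapped. From Amot to Rassf8, each gene exceeded the next in 8 to 13 of the 20 mice, so their order is not resolved. All further levels are CPM, and they compare mice within a gene.

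**Figure D1:**
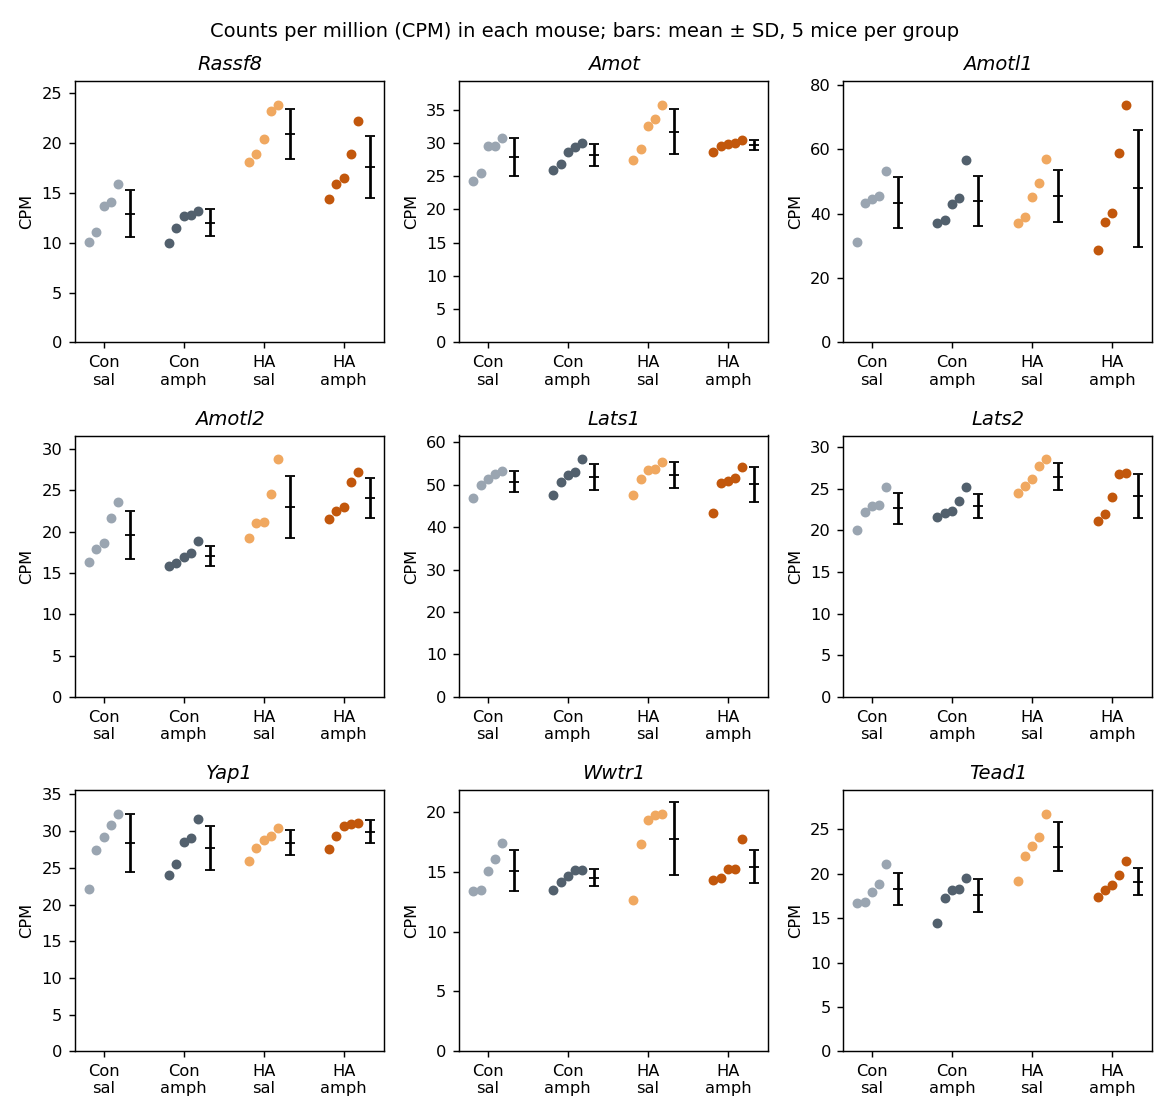
CPM of each of the 9 genes (vertical axes, from 0) in Control (Con) and High-Active (HA) mice given saline (sal) or amphetamine (amph), with 1 point per mouse and bars for the mean ± SD of 5 mice. Rassf8 lay above every Control mouse in 9 of the 10 High-Active mice, while the Lats1 ranges of the 4 groups overlapped.

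Rassf8 (ENSMUSG00000030259, chr6:145746748-145821079 of GRCm38, plus strand) was higher in the High-Active line. In Control saline mice it was at 11.0, 15.8, 14.0, 13.6 and 10.1 CPM. Control amphetamine mice had 12.7, 12.8, 13.2, 11.4 and 9.94 CPM. The Control groups overlapped, with 3 of the 5 saline mice above every amphetamine mouse. High-Active saline mice had 23.1, 20.3, 18.9, 23.8 and 18.1 CPM. High-Active amphetamine mice had 15.9, 22.2, 18.8, 16.5 and 14.3 CPM. Thus 9 of the 10 High-Active mice were above every Control mouse, and the exception, amphetamine mouse 905, was still above the Control median. Amphetamine mouse 192, at 15.85 CPM, only just exceeded the highest Control mouse at 15.82 CPM. The means were 12.5 ± 1.85 CPM in Control and 19.2 ± 3.17 CPM in High-Active mice (SD, n = 10), a fitted log2 fold change of 0.62 (SE 0.0926), or 1.54-fold. Of all genes tested, 0.264% separated the 10 High-Active mice from the 10 Control mice completely, and none of the 9 genes did. Shares of all genes for counts short of complete separation, here and for the other genes, were not computed. The line difference of Rassf8 was 0.69 on the log2 scale in saline mice and 0.55 in amphetamine mice, and 0.57 to 0.66 with any 1 mouse left out. Averaged by parents, the 8 Control families lay between 9.94 and 14.3 CPM and the 5 High-Active families between 15.9 and 20.2 CPM, with no overlap. These are the mice by which Rassf8 was chosen, so the gap is a description and no separate support. Family means were not compared over all genes.

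Amotl2 (ENSMUSG00000032531, chr9:102716672-102733418, plus strand), whose window before an internal start is shown above, was also higher in High-Active mice. Control saline mice had 18.0, 21.7, 18.6, 23.6 and 16.3 CPM. Control amphetamine mice had 16.2, 17.0, 15.8, 17.5 and 18.9 CPM, and each of them was below every High-Active mouse. High-Active saline mice had 21.1, 21.2, 28.8, 24.6 and 19.2 CPM. High-Active amphetamine mice had 22.5, 27.3, 26.01, 21.6 and 23.0 CPM. All 10 High-Active mice were above the Control median, but only 4 were above every Control mouse, because Control saline mice 448 and 477 reached into the High-Active range. The means were 18.3 ± 2.50 CPM in Control and 23.5 ± 3.05 CPM in High-Active mice (SD, n = 10), a log2 fold change of 0.36 (SE 0.0774), or 1.28-fold. The difference was 0.23 (SE 0.109) on the log2 scale in saline mice and 0.49 (SE 0.110) in amphetamine mice. Family means overlapped, from 16.2 to 23.6 CPM in Control and from 22.1 to 24.99 CPM in High-Active mice.

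The other angiomotins did not pass the test of the line effect. Amot (chrX:145446425-145505181, minus strand), the founding member of the family, was at 28.1 ± 2.22 CPM in Control and 30.7 ± 2.51 CPM in High-Active mice (SD, n = 10). Its log2 fold change was 0.13 (95% interval 0.02 to 0.24, adjusted p = 0.127 by edgeR over all genes). High-Active saline mouse 871 had the highest Amot level, 35.7 CPM, and Control saline mouse 883 the lowest, 24.3 CPM. Amotl1 (chr9:14541966-14645056, minus strand), a close relative at junctions, ranged from 31.2 to 56.9 CPM in Control mice and from 28.8 to 73.9 CPM in High-Active mice, where the 5 amphetamine mice held both extremes. Its line difference of 0.09 had an interval from -0.21 to 0.40 on the log2 scale (adjusted p = 0.727), so a difference of this size was not detectable at this spread.

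Among the 7 genes with a line test, 2 passed an adjusted p of 0.1, Tead1 and Lats2, both higher in High-Active mice. Over all genes 14.5% passed, 7.63% as higher and 6.9% as lower in High-Active mice, and the 7 genes were named with results of these mice known. Tead1 (chr7:112679318-112906807, plus strand), the DNA-binding partner of YAP and TAZ, had 16.9, 17.9, 21.1, 18.9 and 16.7 CPM in Control saline mice. Control amphetamine mice had 19.5, 14.5, 18.3, 17.2 and 18.2 CPM. High-Active saline mice had 22.0, 19.2, 24.1, 26.7 and 23.1 CPM. Here 4 of 5 were above every Control mouse. High-Active amphetamine mice had 17.4, 21.4, 19.8, 18.2 and 18.7 CPM, and 4 of these 5 were inside the Control range. The log2 fold change was 0.23 (SE 0.0652, adjusted p = 0.0414, edgeR, n = 10 per line). In the same fit it was 0.33 in saline mice (adjusted p = 0.0725) and 0.12 in amphetamine mice (adjusted p = 0.596), a difference that was itself not called, as given with the interaction. With counts summed within families the call was lost (0.16, adjusted p = 0.273).

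Lats2 (chr14:57689662-57758388, minus strand), which encodes a kinase that phosphorylates YAP and TAZ, was at 22.2, 23.0, 25.2, 23.0 and 20.0 CPM in Control saline mice. Control amphetamine mice had 22.3, 21.6, 23.6, 22.1 and 25.2 CPM. High-Active saline mice had 27.7, 26.2, 24.5, 28.5 and 25.4 CPM. High-Active amphetamine mice had 21.2, 26.9, 26.7, 24.0 and 21.9 CPM. Of the High-Active mice, 6 were above every Control mouse and none was below all of them. The log2 fold change was 0.15 (SE 0.0530, adjusted p = 0.0897, edgeR, n = 10 per line). The call was lost without any 1 of 12 of the 20 mice, with adjusted p values between 0.105 and 0.167, and with counts summed within families (0.11, adjusted p = 0.404). The read-through gene Gm49361, not among the genes counted, shares 2955 exon bases with Lats2.

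The remaining kinase and both coactivators did not pass. Lats1 (chr10:7681214-7716460, plus strand), the other LATS kinase, varied least of the 9 genes, with a coefficient of variation of 6.04% over the 20 mice. It was at 51.3 ± 2.70 CPM in Control and 51.2 ± 3.600 CPM in High-Active mice (SD, n = 10), and the interval of its line difference ran from -0.09 to 0.08 on the log2 scale (adjusted p = 0.955). Yap1 (chr9:7931999-8004596, minus strand) was at 28.1 ± 3.32 CPM in Control and 29.2 ± 1.73 CPM in High-Active mice, a log2 difference of 0.06 with an interval from -0.07 to 0.19 (adjusted p = 0.6005). It shares 116 exon bases with Gm20416 on the opposite strand, and reads of the pair may not have been separated. Wwtr1 (chr3:57455649-57575910, minus strand) was at 14.8 ± 1.29 CPM in Control and 16.6 ± 2.55 CPM in High-Active mice, with a log2 difference of 0.16 (adjusted p = 0.178). High-Active saline mice held both its extremes, with mouse 197 at 12.6 CPM below every Control mouse and 3 mice between 19.3 and 19.8 CPM above every one.

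**Figure D2:**
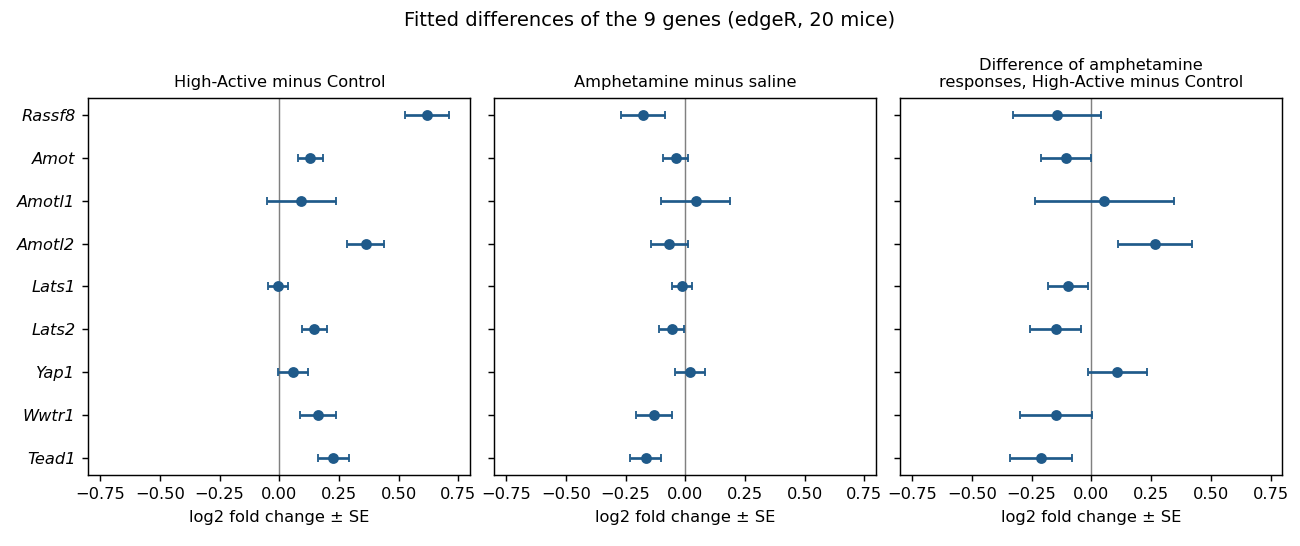
Fitted log2 fold changes of the 9 genes ± SE for High-Active minus Control, amphetamine minus saline, and the difference of the amphetamine responses of the lines (20 mice). Rassf8 at 0.62 and Amotl2 at 0.36, both chosen by this contrast, lie farthest from 0 in the line panel, and none of the points passed the test in the other panels.

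The amphetamine comparison asks whether a single low dose changed these genes within 2 hours. None of the 9 genes passed an adjusted p of 0.1 in edgeR's quasi-likelihood test, where 0.0% of all genes passed. Unadjusted, 1 of the 9 was under 0.05, as were 12.5% of all genes. DESeq2, which called 2.64% of all genes, and a likelihood-ratio test, which called 3.1%, also called none of the 9. The gene under 0.05 was Tead1, with a log2 change of -0.17 after amphetamine over both lines (SE 0.0651, adjusted p = 0.306 in edgeR). Rassf8 had a log2 change of -0.18 (95% interval -0.37 to 0.02, adjusted p = 0.446), and Wwtr1 had -0.13 (adjusted p = 0.488). For Amotl2 the change was -0.07 (interval -0.23 to 0.10, adjusted p = 0.776). The other 5 genes lay between -0.06 and 0.04 on the log2 scale, with adjusted p values from 0.716 to 0.931.

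No gene of the 9 had a called difference between the lines in the response to amphetamine. None was under an unadjusted p of 0.05, where 2.97% of all genes were. In this comparison 0.0% of all genes passed in edgeR, and DESeq2 and the likelihood-ratio test called none of the 9. Amotl2 had the largest interaction, 0.27 (SE 0.155). Its mean was 17.1 ± 1.23 CPM after amphetamine and 19.6 ± 2.92 CPM after saline in Control mice, against 24.1 ± 2.43 and 23.0 ± 3.78 CPM in High-Active mice (SD, n = 5). Tead1 had an interaction of -0.21 (SE 0.130). Its High-Active means were 23.1 ± 2.76 CPM after saline and 19.1 ± 1.55 CPM after amphetamine, and its Control means 18.3 ± 1.801 and 17.6 ± 1.90 CPM (SD, n = 5). The intervals of both reached past 0, from -0.06 to 0.59 for Amotl2 and from -0.48 to 0.06 for Tead1. The Amotl2 value was 0.40 (SE 0.110, adjusted p = 0.9999) with marker scores of cortical neurons and oligodendrocytes in the fit.

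Of 6 markers of cortical excitatory neurons, 2 were called between the lines, both lower in High-Active mice, against 6.9% of all genes. Summed over the 6 genes, including the glutamate transporter gene Slc17a7, their level was 257 to 769 CPM in Control mice (median 616) and 129 to 889 CPM in High-Active mice (median 281). The mean score of the 6 genes, in log2 units around the mean of all mice, was -0.97 ± 0.51 in High-Active saline mice and 0.24 ± 0.90 in High-Active amphetamine mice. It was 0.05 ± 0.76 in Control saline mice and 0.68 ± 0.16 in Control amphetamine mice (SD, n = 5). The mean score was thus lower in High-Active than in Control mice and higher after amphetamine than after saline in each line, with overlapping groups and no test of the score. Within groups, Amotl2 levels were lower where this score was higher, with a correlation of -0.79 over the 20 mice (-0.83 to -0.75 with any 1 mouse left out). Rassf8 had -0.64, Amotl1 and Amot both had -0.57, Lats2 -0.52 and Tead1 -0.49, while Yap1, Lats1 and Wwtr1 lay between -0.16 and -0.08. These correlations are descriptions over libraries that share depth and composition.

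With the scores of cortical neurons and oligodendrocytes in the fit, the line difference of Rassf8 was 0.47 (SE 0.0907) and that of Amotl2 was 0.21 (SE 0.0621), against 0.62 and 0.36 without them. The value of Amotl2 thus moved by over 1.5 times. Tead1 and Lats2 lost their calls, at 0.13 (adjusted p = 0.417) and 0.07 (adjusted p = 0.603), and 3.14% of all genes passed in that fit. The cortical score itself differed by -0.73 between High-Active and Control mice. In bulk tissue, fewer cells of a type and less RNA per cell cannot be told apart.

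**Figure D3:**
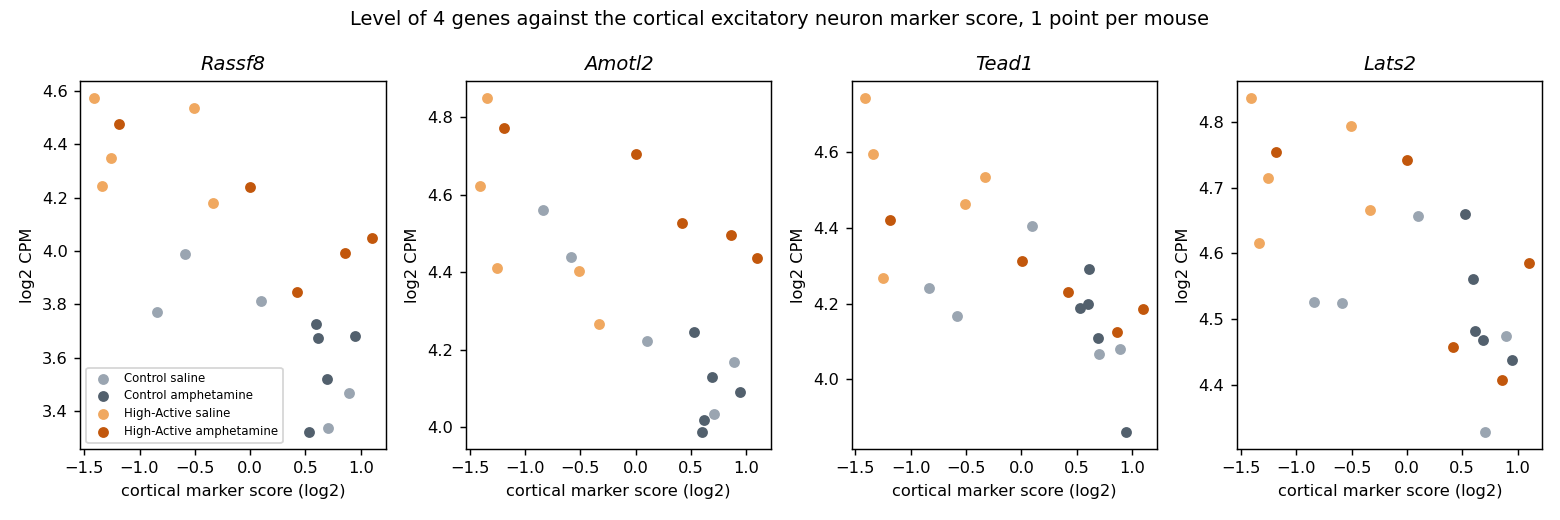
Level of Rassf8, Amotl2, Tead1 and Lats2 (vertical axes, log2 CPM, not starting at 0) against the score of 6 cortical excitatory neuron markers (horizontal axes, log2 units around the mean of all mice), with 1 point per mouse colored by group. High-Active saline mice sit at low scores, and Amotl2 had the strongest within-group correlation, -0.79.

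Lists of other cell types were read in the same way, beside 7.63% of all genes called higher and 6.9% lower. Oligodendrocyte markers had 2 of 7 genes called higher in High-Active mice, and summed to 3782 to 6383 CPM in Control and 5258 to 7001 CPM in High-Active mice. Choroid plexus and ependyma markers had 2 of 6 called higher, with summed levels of 31.6 to 747 CPM in Control and 43.8 to 927 CPM in High-Active mice. Pericyte and smooth muscle markers, at 89.8 to 142 CPM in Control and 127 to 169 CPM in High-Active mice, had 2 of 6 called higher and 1 lower. Astrocyte markers had 3 of 7 called higher and 1 lower. Their summed level went the other way, with a median of 4080 CPM in Control and 3935 CPM in High-Active mice, and their mean score differed by 0.06. Microglia markers had 2 of 6 called lower, endothelial markers 1 of 8 lower, and fibroblast markers 0 of 5. The defining markers of striatal projection neurons were present in every mouse, at summed levels of 4185 to 5386 CPM in Control and 3565 to 5676 CPM in High-Active mice, and 0 of 8 were called. Tead1 followed the choroid plexus and ependyma score (0.67) and the astrocyte score (0.66) within groups, and Lats2 the former (0.56). With the striatal projection neuron score, Rassf8 had a within-group correlation of -0.53, Lats2 -0.49, Amotl1 -0.46 and Tead1 -0.32. Amotl2 had -0.11 and Amot -0.08 with it, while Yap1 (0.35), Lats1 (0.40) and Wwtr1 (0.44) went the other way. The part of these lists in the line differences was not tested.

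Some pairs of the 9 genes varied together. Of their 36 pairs, 7 had a within-group correlation above 0.4 in size, all positive. The highest were Amotl1 with Lats2 (0.66), Rassf8 with Lats2 (0.62) and Rassf8 with Amot (0.60). Amot with Lats1, at -0.398, fell just short of that size. The share of all gene pairs above it was not computed. Each gene of the 7 pairs also correlated with the cortical score (-0.79 to -0.49), whose part in the pairs was not tested. Among all genes tested, those most like Rassf8 over the 20 mice were Magee2 (0.87), the relaxin-family peptide receptor gene Rxfp3 (0.87) and the protocadherin gene Pcdh19 (0.86). Most like Amotl2 were Zscan29 (0.84), Gad1, which encodes a GABA-synthesizing enzyme (0.82), and Slc32a1, the vesicular GABA transporter gene (0.81). None of these 6 genes was called between the lines, with adjusted p values from 0.106 to 0.812.

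Genes near Rassf8 and Amotl2 were read as well. Within 1 Mb of Rassf8, 6 of 18 tested genes were called, against 14.5% of all genes, Sspn, Itpr2 and Tm7sf3 higher and Arntl2, Fgfr1op2 and Ints13 lower in High-Active mice. Itpr2, an inositol trisphosphate receptor gene of intracellular calcium release, had the smallest adjusted p of them (log2 0.36, SE 0.0459, adjusted p = 0.000215 from edgeR). The names of called neighbours were chosen after their values were seen. The nearest tested gene after Rassf8, Bhlhe41, lay 37.2 kb away and had a log2 difference of 0.04 (adjusted p = 0.801). The nearest before it was the pseudogene Rps25-ps1, whose reads may be shared with its parent gene. Around Amotl2, 1 of 12 was called, the lens filament gene Bfsp2 (-1.13, SE 0.349, adjusted p = 0.0529), and the nearest tested genes Anapc13 (-0.04) and Ryk (0.11) were not. Around the other 7 genes, 8 of 82 neighbours were called.

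The wider pathway was read through 77 other genes in 5 lists, of which 69 were tested. Between the lines 13 of the 69 were called, 7 higher and 6 lower in High-Active mice, a share of 18.8% against 14.5% of all genes. The median log2 difference of the 69 was 0.0028, and that of all genes was -0.00093.

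Upstream, 2 of 7 other RASSF genes were called, both higher. Of all genes, 7.63% were called higher and 6.9% lower, the background for each list here. Rassf5, whose protein binds the MST kinases at the head of the pathway, was at 18.3 ± 2.26 CPM in Control and 21.4 ± 3.04 CPM in High-Active mice (log2 0.22, adjusted p = 0.0853), and Rassf9 was at 1.17 ± 0.225 and 1.62 ± 0.462 CPM (0.46, adjusted p = 0.0903; edgeR, n = 10 per line). Of 16 other kinases and scaffolds, Stk38, a relative of the LATS kinases, and Map4k4, a kinase that can act on LATS, were higher (0.17, adjusted p = 0.00971, and 0.18, adjusted p = 0.0181). Its relative Map4k2 was lower (-0.14, adjusted p = 0.0194). The genes of the MST kinases, Stk3 and Stk4, were not called. Among 23 membrane and polarity genes, 2 were higher. Dchs1, a giant cadherin that binds Fat cadherins on the neighbouring cell, was at 18.6 ± 2.42 CPM in Control and 24.8 ± 4.19 CPM in High-Active mice (0.41, SE 0.0830, adjusted p = 0.00665), and Trp53bp2, which encodes a scaffold of the ASPP family, had 0.15 (adjusted p = 0.0465). The 4 tested nuclear partners had no call between the lines in edgeR, and none had an unadjusted p under 0.05.

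**Figure D4:**
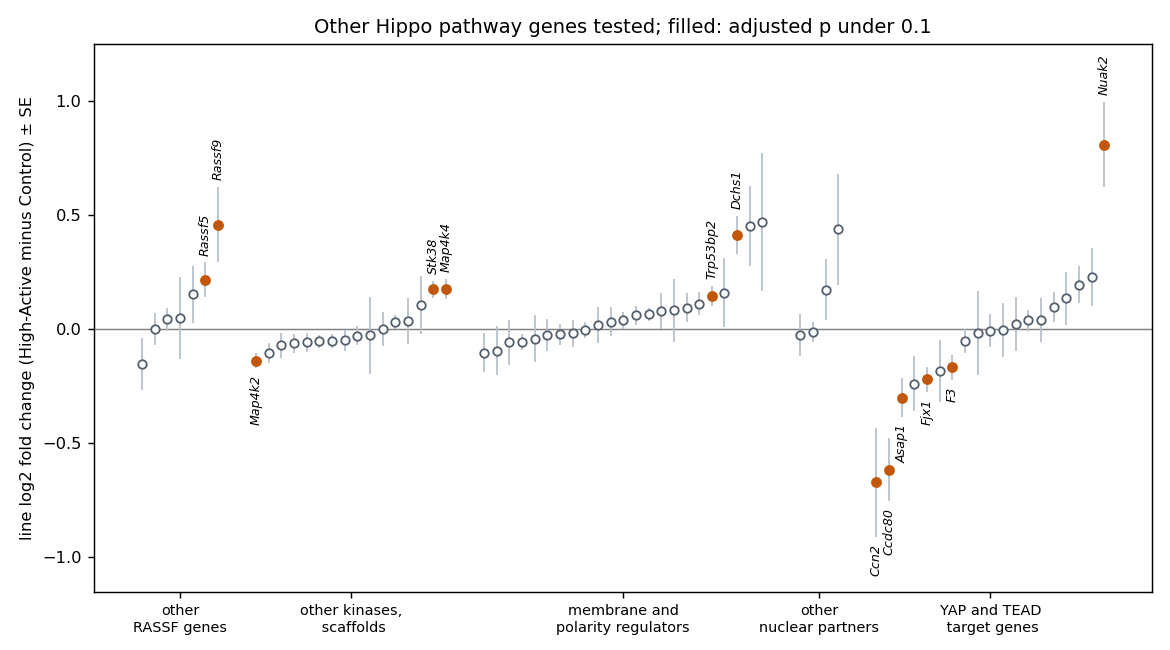
Line log2 fold change (High-Active minus Control, vertical axis) ± SE of the 69 other pathway genes tested, ordered by value within 5 lists along the horizontal axis, with filled and named points for the 13 with an adjusted p under 0.1. The called YAP and TEAD target genes lie mostly below 0, while the called genes of the upstream lists, except Map4k2, lie above it. This contrast holds for called genes only. Over all tested genes of a list, the median was -0.01 for the targets and -0.04 for the kinases and scaffolds. It was 0.05 for the RASSF genes and 0.04 for the membrane and polarity genes. Amotl2, a target of YAP and TEAD with a value of 0.36, is not in the target list.

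Downstream, 6 of 19 YAP and TEAD target genes were called, 5 lower and 1 higher in High-Active mice. Amotl2, also a target of YAP and TEAD, is not in this list, and it was higher in High-Active mice (0.36, chosen by this difference and not tested). Of all genes 14.5% were called, 6.9% as lower and 7.63% as higher. Ccn2, a secreted matrix protein and one of the most used readouts of YAP, was at 29.2 ± 11.2 CPM in Control and 18.6 ± 9.83 CPM in High-Active mice (-0.67, SE 0.239, adjusted p = 0.0872). Ccdc80, another secreted protein, was at 5.98 ± 1.39 and 3.88 ± 0.840 CPM (-0.62, SE 0.137, adjusted p = 0.0117). Asap1, which encodes an activator of ARF GTP hydrolysis, had -0.30 (adjusted p = 0.0397), Fjx1 had -0.22 (adjusted p = 0.0201), and F3, the tissue factor gene of blood clotting, had -0.17 (adjusted p = 0.0599). Nuak2, a kinase gene of the AMPK family, went the other way, from 1.20 ± 0.407 CPM in Control to 2.097 ± 0.495 CPM in High-Active mice (0.81, SE 0.187, adjusted p = 0.0148; edgeR, n = 10 per line). The list's median log2 difference was -0.01. With the cortical and oligodendrocyte scores in the fit none of these 6 kept its call. Ccn2 moved from -0.67 to -0.15 and Asap1 from -0.30 to -0.11, while F3 was at -0.16, Fjx1 at -0.16, Ccdc80 at -0.43 and Nuak2 at 0.48. In that fit only Map4k2 and Dchs1 of the 69 genes passed, with adjusted p values of 0.0899 and 0.0953. With counts summed within families, Ccdc80 and Fjx1 passed.

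Amphetamine gave no call among the 69 pathway genes in edgeR, where 10 had an unadjusted p under 0.05, beside 12.5% of all genes. DESeq2 called 2 (Stk38 and Wwc2), against 2.64% of all genes, and the likelihood-ratio test 3 (Ccn2, Asap1 and Stk38), against 3.1%. Stk38 had the smallest adjusted p in edgeR, with a log2 change of -0.17 (adjusted p = 0.166). Ccn2 had 0.73 (adjusted p = 0.228) beside the higher cortical marker scores of the amphetamine mice. The interaction had no call among the 69 by edgeR, DESeq2 or the likelihood-ratio test. In edgeR 3 of the 69 had an unadjusted p under 0.05, beside 2.97% of all genes.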

How the data were processed

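Striatal RNA from 20 mice was sequenced as paired reads from a stranded kit, pooled over 5 lanes. The authors called bases with CASAVA 1.8.2, aligned reads with TopHat2 2.0.10 to GRCm38 and deposited raw counts per Ensembl gene from HTSeq 0.6.1. The strand setting was not given in the sources used here. Of all reads the tables list, 8.17% to 9.55% fell on no gene and 1.39% to 1.66% were ambiguous, and these were left out of library sizes.

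Genes above 1 CPM in at least 3 mice were TMM-normalized and compared by edgeR 4.0.16 (quasi-likelihood test, a mean for each of 4 groups, Benjamini-Hochberg adjustment over all 14792 genes for each effect, threshold 0.1). SE is the log2 fold change divided by the square root of F, and intervals use the fit's degrees of freedom. Log2 CPM used a prior count of 2. Within-group correlations were Pearson's, on residuals from the 4 group means. CPM values are this work's own. In simulated data 88% of genes changed 1.5-fold between the lines were recovered. The simulated mice shared no families and did not differ in cortical content. The 7 genes with a line test differed by at most 1.17-fold, so this share does not give the power for them.

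The genes and lists were chosen with earlier results of these data known. All 9 genes were named, with each pathway gene that passed a test, the 3 genes most like Rassf8 and Amotl2, and their nearest tested neighbours. Positions and symbols came from an annotation of the same build, which named 37607 of the 39179 genes. Numbers in the labels are mouse names and pair no samples across groups. Mice shared parents within lines, so p values may be too small. At the lowest depth 3 counts correspond to 0.0926 CPM. Alternatives were RLE factors, other filters, DESeq2 1.42.0, a likelihood-ratio test with robust dispersions, limma 3.58.1 with family as a block, counts summed within families, family as a fixed block (added after seeing the data), marker score covariates, each line or treatment alone, and leaving out each mouse.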

Additional observations from a re-analysis of the deposited data

How the results depend on the processing

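The line differences of Rassf8 and Amotl2 stayed positive under every alternative run. Both genes were chosen by this difference in these same mice, so the kept sign is a description and no support. Without any 1 mouse, the line difference of Amotl2 lay between 0.31 and 0.40 on the log2 scale. With the marker scores it was 0.21, against 0.36 in the main fit. The call of Tead1 held without any 1 mouse and was lost in saline mice alone (adjusted p = 0.120), in amphetamine mice alone (0.580), with family sums and with the marker scores. Lats2 also lost its call with no filter (0.131), with the likelihood-ratio test (0.141) and with limma-voom and a family block (0.123). It passed in only 11 of the 30 alternatives, with adjusted p values up to 0.731. In the main edgeR fit its line difference was not called within saline mice (adjusted p = 0.135) or within amphetamine mice (0.709). Amot gained one with DESeq2 (0.0985), without Control saline mouse 448 (0.0985) and without High-Active saline mouse 886 (0.0609), and Wwtr1 gained one without High-Active saline mouse 197 (0.0373).

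Mouse numbers in the labels pair no samples, but 6 families (2 Control, 4 High-Active, 13 mice) held both treatments. With family as a fixed block, an alternative chosen after seeing the data that leaves 5 residual degrees of freedom, no gene of the 9 or of the 69 was called for amphetamine or the interaction, and 0.00676% of all genes passed in each. The Amotl2 interaction was 0.390 in that fit. Signs changed there for the amphetamine value of Amot (0.0146) and for the interactions of Amotl1 (-0.0866), Yap1 (-0.0219) and Wwtr1 (0.0430).

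The 13 line calls among the 69 pathway genes became 2 with the marker scores, 2 with family sums, 2 in saline mice alone and 0 in amphetamine mice alone, and 10 to 16 with 1 mouse left out. The share of all genes called went from 14.5% to 3.14%, 4.12%, 3.38% and 0.804% in the first 4 of these settings. Family sums and single treatments use fewer samples. The 0 amphetamine calls became 2 with DESeq2 (2.64% of all genes), 3 with the likelihood-ratio test (3.1%) and 0 to 4 with 1 mouse left out, the most without High-Active amphetamine mouse 415 (2.3%), and 1 each without Control saline mice 411 (0.867%) and 883 (0.135%). The cause of these changes was not tested.

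The other sign changes were also in differences without a call. For the line effect they were Amotl1 with the marker scores (-0.163) and with 1 mouse left out (-0.0109 to 0.162), and Lats1 in saline mice (0.0432) and with 1 mouse left out (-0.0208 to 0.0195). For amphetamine, the marker scores gave 0.0228 for Rassf8, 0.0933 for Amot, 0.154 for Amotl2 and 0.0210 for Lats2. Control mice alone gave 0.0112 for Amot, -0.0361 for Yap1, 0.0313 for Lats1 and 0.0165 for Lats2, High-Active mice alone gave 0.0702 for Amotl2, and the likelihood-ratio test gave -0.0305 for Amotl1. With 1 mouse left out, the amphetamine values ranged from -0.0606 to 0.112 for Amotl1, from -0.0141 to 0.0499 for Yap1 and from -0.0306 to 0.00918 for Lats1. The interaction of Amotl1 was -0.0164 with the likelihood-ratio test, -0.0317 with limma-voom and -0.153 to 0.196 with 1 mouse left out.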
